A study of Mus musculus with 6 samples.

Results

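The 8 genes described here are the TGF-β ligands Tgfb1, Tgfb2 and Tgfb3 and the receptors Tgfbr1, Tgfbr2, Tgfbr3, Eng and Acvrl1, taken by symbol from the 31053 mouse genes of a single-cell RNA count matrix. All 8 were found, and each passed, in every comparison reported here, the minimum of 10 CPM (counts of unique molecular identifiers, UMIs, per 1000000). The study sequenced cells of the mouse aorta from its root to the arch in 6 female mice at 16 weeks of age, all kept on a 129 strain background. Of these, 4 were control (CTL) mice with the genotype Tgfbr1+/+, and 2 of the 4 also carried Wnt2CRE and the EGFP-L10a tracer allele. In these, a Cre recombinase driven by the Wnt2 promoter switches on the tracer in cells descended from the cardiac neural crest. The other 2 were LDS mice, Tgfbr1 M318R/+, a model of Loeys-Dietz syndrome in which 1 allele of Tgfbr1 carries the substitution in every cell of the body. The UMI counts do not separate the M318R allele of Tgfbr1 from the wild-type allele.

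TGF-β ligands are secreted in a latent complex that binds the extracellular matrix and are released from it by integrins and proteases. The free ligand binds the type II receptor Tgfbr2, which activates the type I receptor Tgfbr1 (ALK5), and this in turn phosphorylates Smad proteins that enter the nucleus. Tgfbr3 (betaglycan) is a co-receptor that presents ligand to the signalling pair, above all the Tgfb2 protein. Eng (endoglin) and Acvrl1 (ALK1) are best known from endothelial cells, where they respond to the circulating ligands encoded by Gdf2 and Bmp10. In the aorta the pathway governs the contractile and matrix genes of vascular smooth muscle cells (VSMCs), and inherited mutations that weaken it cause aneurysm.

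The number at the end of each cell barcode separated 6 libraries, and no label, file or method pairs a number with a mouse. The libraries were therefore given no genotype, no difference between LDS and control could be measured, and levels are reported library by library or by their lowest, median and highest. In the report, higher or lower in every library means that the ratio had 1 sign in each library with at least 20 cells of both kinds, and no p-values were computed. After filtering, 24972 of 30716 barcodes were kept, 1863 to 6395 in a library, with a median of 5572 to 9838 UMIs per cell. UMIs of the GFP sequence numbered 157 to 263 in libraries 1 to 4 and 8 and 6 in libraries 5 and 6, whereas the labels list the tracer in 2 mice only, so the labels and the GFP counts did not match. The values of every library are given below without regard to this. The libraries shared 76 barcode sequences.

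Clusters were named from marker genes. The VSMC-like class held 10226 cells, the fibroblast-like class 13607, the endothelial-like class 573 and the leukocyte-like class 549, and 17 cells with cardiomyocyte transcripts were left out. Levels are CPM of the counts summed over a class in a library. The 7 VSMC markers summed to 61820 to 67840 CPM in VSMC-like cells and to 1350 to 5809 CPM in fibroblast-like cells, the 7 fibroblast markers to 21520 to 31660 CPM in fibroblast-like and 792 to 2198 CPM in VSMC-like cells. Endothelial-like cells numbered 10 in library 6, so that this class was read in 5 libraries. They joined a cluster led by Cd36, Rbp7 and Gpihbp1 and another with the lymphatic markers Ccl21a, Mmrn1, Lyve1 and Flt4 among its leading genes. The leukocyte-like class was also mixed. It joined 406 cells led by C1qb, C1qa and Lyz2, 104 led by Camp, Ngp and S100a8, and 39 led by S100a9, Clec4e and Il1b. The cluster of 104 cells was itself mixed, with the T cell genes Cd3e, Trbc2 and Il7r also among its leading genes. Of its cells, 35.6% were in the top 5% of doublet scores. Markers of another cell type also stood among the 10 leading genes of clusters in other classes. They included the pericyte marker Rgs5 in a VSMC-like cluster, and the haemoglobin gene Hbb-bs in the cluster led by Cd36. The share of cells in the top 5% of doublet scores was 4.04% in VSMC-like, 4.73% in fibroblast-like, 14.7% in endothelial-like and 19.7% in leukocyte-like cells, and the values were computed again without those cells.

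The ligands differed in which class expressed them most, and the sequences before their start sites also differ. RefSeq start-site windows on GRCm38.p6 were at hand for Tgfb1, Tgfb2, Tgfbr1, Tgfbr2 and Eng, each from 250 bases before to 50 bases after the start. The windows of Tgfb1, at chr7:25686752-25687051 on the plus strand, and of Tgfb2, at chr1:186705940-186706239 on the minus strand, are shown because these ligands had opposite orders of level over the 4 classes. Matches on either strand to the GC box GGGCGG, the TATA box TATAAA, the ETS-type motif CAGGAAG and the Smad-type motif CAGACA are in capitals, and no match overlaps another.
Tgfb1: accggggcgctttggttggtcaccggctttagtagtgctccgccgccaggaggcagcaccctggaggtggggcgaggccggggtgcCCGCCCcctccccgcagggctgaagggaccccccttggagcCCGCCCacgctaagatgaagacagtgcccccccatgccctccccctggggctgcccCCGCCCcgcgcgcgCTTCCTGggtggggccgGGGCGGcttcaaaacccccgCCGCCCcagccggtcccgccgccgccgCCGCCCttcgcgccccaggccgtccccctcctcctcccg
Tgfb2: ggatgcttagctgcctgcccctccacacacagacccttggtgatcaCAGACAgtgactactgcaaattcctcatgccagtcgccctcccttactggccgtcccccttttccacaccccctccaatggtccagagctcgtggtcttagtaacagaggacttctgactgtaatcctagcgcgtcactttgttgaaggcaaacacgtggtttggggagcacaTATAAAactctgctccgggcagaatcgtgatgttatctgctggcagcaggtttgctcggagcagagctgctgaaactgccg
The Tgfb1 window holds 6 GC boxes and 1 ETS-type match and has a GC content of 77%, against a median of 52.7% over all 32851 windows of the same length. The Tgfb2 window holds 1 TATA box and 1 Smad-type match, and 54.3% of its bases are G or C. A GC box occurs in 35.7%, a TATA box in 13.6%, an ETS-type match in 13.3% and a Smad-type match in 21.0% of all windows. The first window of Tgfbr1 holds 2 GC boxes and 1 ETS-type match and no TATA box, while the windows of Tgfbr2 and Eng hold no match to any of the 4 motifs. These matches describe the letters only.

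Among the ligands, Tgfb1 was lowest in VSMC-like cells and Tgfb2 was highest there. Tgfb1 (chr7:25687002-25705077 in mm10), the ligand made by many immune and stromal cells, ranged from 38.2 to 44.4 CPM in VSMC-like cells, with a median of 39.4. Its median was 83.5 CPM in fibroblast-like cells, with a range of 61.9 to 105, and 183 CPM in endothelial-like cells, with a range of 151 to 265. Leukocyte-like cells had the highest median, 252 CPM, with a range of 181 to 333. The order leukocyte, endothelial, fibroblast, VSMC held at each step in every library, and the VSMC-like and fibroblast-like values did not overlap. The narrowest step was leukocyte over endothelial, with a log2 ratio of 0.22 (range 0.07 to 1.13, 5 libraries).

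Tgfb2 (chr1:186622792-186705989), a ligand needed for heart and outflow tract development, had the reverse order. It ranged from 125 to 145 CPM in VSMC-like cells, with a median of 134, and from 57.2 to 83.2 CPM in fibroblast-like cells, with a median of 75.2. The medians were 31.2 CPM in endothelial-like and 13.1 CPM in leukocyte-like cells, from ranges of 22.1 to 69.7 and of 2.96 to 71.0. The VSMC-like values lay above all others, and the first 2 steps of the order held in every library. The last step, endothelial over leukocyte, held in 4 of 5 libraries. Its exception was library 1, whose 47 leukocyte-like cells held 19 of the 54 Tgfb2 UMIs of that class.

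Tgfb3 (chr12:86056745-86079041), a ligand known for its part in palate fusion and in connective tissue, was the ligand with the smallest gap between the main stromal classes. It ranged from 76.9 to 160 CPM in fibroblast-like cells, with a median of 111, and from 55.6 to 96.9 CPM in VSMC-like cells, with a median of 72.1. The log2 ratio of fibroblast-like over VSMC-like cells was 0.70, with a range of −0.11 to 1.05, and it was above 0 in 5 of 6 libraries. Library 5 was the exception, with 76.9 CPM in fibroblast-like and 83.1 CPM in VSMC-like cells. The medians of 29.6 CPM in endothelial-like and 10.8 CPM in leukocyte-like cells were lower than both stromal classes in every library.

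The signalling receptors were split between the classes. Tgfbr1 (chr4:47353222-47414931), the gene that carries the M318R allele in LDS mice, had its highest median in VSMC-like cells, 68.4 CPM, with a range of 65.3 to 88.7. Its median was 45.0 CPM in fibroblast-like cells (range 36.4 to 57.7), 67.7 CPM in leukocyte-like cells (range 48.5 to 88.8) and 22.9 CPM in endothelial-like cells (range 17.1 to 28.1). VSMC-like cells exceeded fibroblast-like and endothelial-like cells in every library and leukocyte-like cells in 4 of 6, so the first neighbours in this order did not differ beyond their spread. No genotype could be read from these levels, since libraries were not assigned.

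Tgfbr2 (chr9:116084293-116175360), the partner that Tgfbr1 requires, had the opposite pattern in the stroma. It ranged from 28.9 to 33.5 CPM in VSMC-like cells, with a median of 30.4, and from 101 to 131 CPM in fibroblast-like cells, with a median of 118. The log2 ratio of fibroblast-like over VSMC-like cells was 1.90 (range 1.78 to 2.13), which is 3.74-fold at the median and the narrowest range among the 8 genes. The medians of endothelial-like (124 CPM) and leukocyte-like cells (128 CPM) were close to that of fibroblast-like cells, and neither neighbouring step held in every library. Within the leukocyte-like class, medians were 143 CPM in the cluster led by C1qb, 46.7 CPM in that led by Camp (2 libraries) and 37.1 CPM in that led by S100a9 (1 library). Library 6, where the class had 62.0 CPM, held 35 of the 39 cells led by S100a9. The part of this mixture in the class level was not tested. VSMC-like cells were thus the class with the lowest level of Tgfbr2 in each library, and at the same time held more Tgfbr1 than fibroblast-like cells.

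The co-receptor Tgfbr3 (chr5:107106570-107289629) had medians of 98.3 CPM in fibroblast-like, 92.1 CPM in endothelial-like and 48.5 CPM in VSMC-like cells. The first step of this order held in 5 of 5 and the second in 4 of 5 libraries, library 2 being the exception, and the first was small (log2 ratio 0.16, range 0.03 to 1.57). Leukocyte-like cells held 25 UMIs of it in all 549 cells, with none in libraries 1 and 2. Within a class, Tgfbr3 was lowest in libraries 2 and 6. It stood at 24.3 and 29.7 CPM there against 45.5 to 63.0 CPM elsewhere in VSMC-like cells, and at 52.5 and 68.6 CPM against 93.9 to 107 CPM in fibroblast-like cells. These were the libraries with the highest median UMIs per cell, 9838 and 9615, against 5572 to 7530 in the others, and the part of depth in the Tgfbr3 level was not tested. The log2 ratio of fibroblast-like over VSMC-like cells was 1.05 (range 0.75 to 1.21) and was no smaller in libraries 2 and 6, at 1.11 and 1.21.

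Eng (chr2:32646595-32682669) and Acvrl1 (chr15:101128522-101145336) were highest in endothelial-like cells. Eng ranged there from 325 to 746 CPM, with a median of 517, against medians of 99.0 CPM in fibroblast-like, 30.8 CPM in VSMC-like and 18.4 CPM in leukocyte-like cells. Every endothelial-like value lay above every value of the other classes, and each step of the order held in every library. Acvrl1 ranged from 89.5 to 171 CPM in endothelial-like cells, with medians of 51.8 CPM in fibroblast-like, 33.1 CPM in leukocyte-like and 15.2 CPM in VSMC-like cells, and again each step held in every library. The fibroblast-like cells exceeded VSMC-like cells by log2 ratios of 1.72 (range 1.35 to 2.14) for Eng and 1.79 (range 1.51 to 2.20) for Acvrl1. Of the circulating ligands of Acvrl1, Gdf2 had 42 UMIs and Bmp10 none in all 24972 cells. Fpgs overlaps Eng and Ttll5 overlaps Tgfb3 on the opposite strand, and whether the counting used strand is not given in the sources used here. On the same strand, Gm43422, Gm43423 and Gm42900 overlap Tgfbr3, and Mir1954, Gm47291 and Gm26236 overlap Eng. The part of these overlaps in the counts was not tested.

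**Figure D1:**
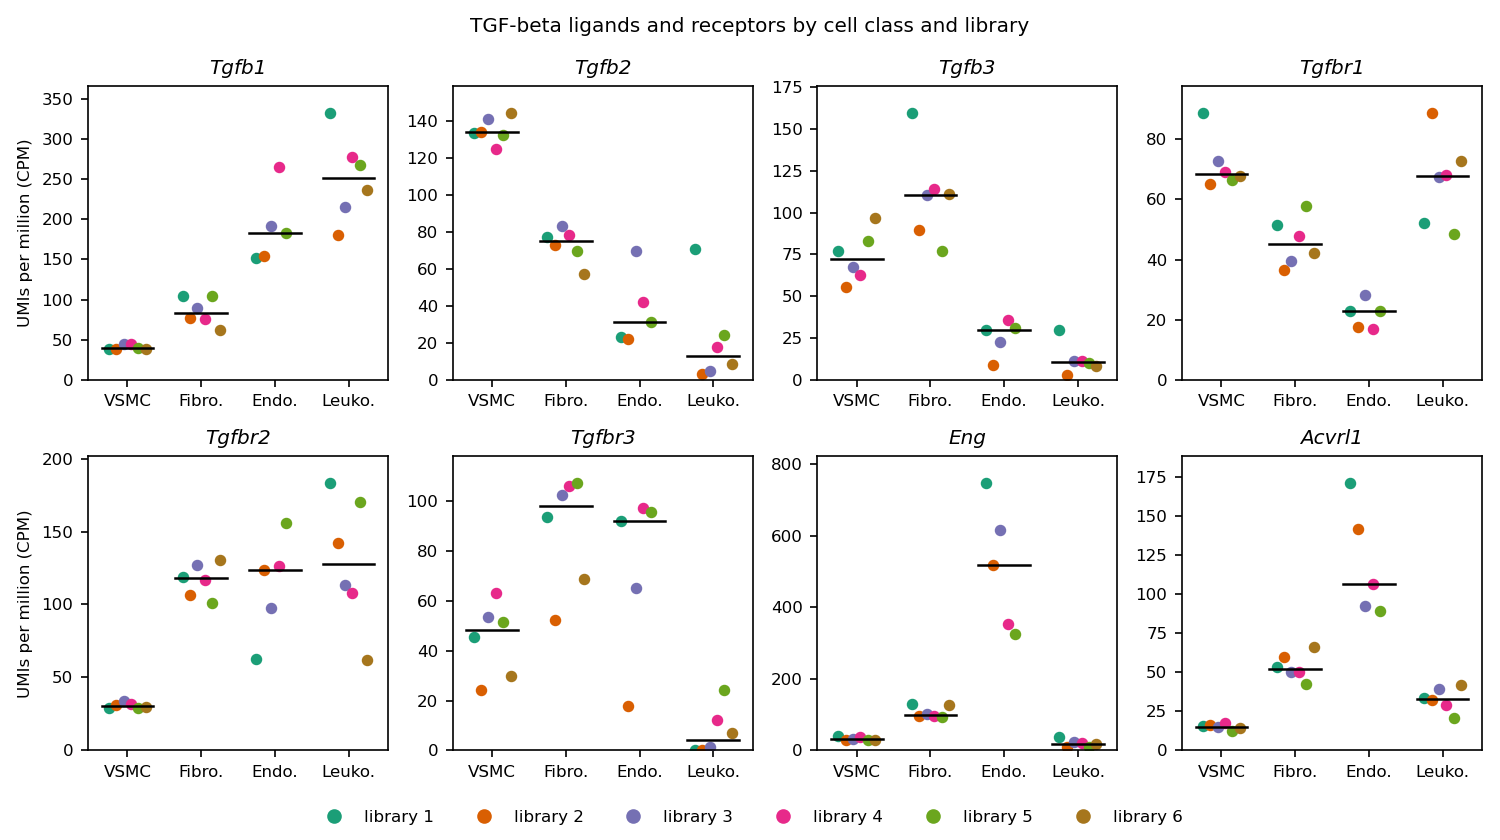
CPM of the 8 genes (y axis, linear from 0, 1 scale per gene) in the 4 cell classes (x axis). Each point is the sum over a class in 1 library with at least 20 cells, and the bar is the median over libraries. Tgfb2 falls from 134 CPM in VSMC-like to 13.1 CPM in leukocyte-like cells at the median while Tgfb1 runs from 39.4 to 252 CPM, and Eng is at 325 CPM or more in endothelial-like cells and at 130 CPM or less in the others.

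Set against the whole transcriptome, a difference in 1 direction between classes was common. Fibroblast-like cells were higher than VSMC-like cells in every library for 5 of the 8 genes (Tgfb1, Tgfbr2, Tgfbr3, Eng and Acvrl1), where 36.9% of 8177 genes were, and lower for 2 (Tgfb2 and Tgfbr1), where 34.7% were. Without library 5, Tgfb3 was also higher, which made 6. Endothelial-like cells were higher than VSMC-like cells for 4 genes (Tgfb1, Tgfbr2, Eng and Acvrl1) against a background of 28.3% and lower for 3 (Tgfb2, Tgfb3 and Tgfbr1) against 27.6%. They were higher than fibroblast-like cells for 3 genes (Tgfb1, Eng and Acvrl1) against 27.7% and lower for 4 (Tgfb2, Tgfb3, Tgfbr1 and Tgfbr3) against 23.3%. With TMM scaling these 2 pairs of backgrounds became 15.8% and 45.5%, and 15% and 35.8%, and the calls of the 8 genes stood. The call of Tgfbr3 against fibroblast-like cells was lost without the 5% highest doublet scores (3 of 4 libraries lower), without the cells called doublets (4 of 5) and with the mean CPM of each cell (4 of 5), which left 3 lower genes. Against VSMC-like cells Tgfbr3 was higher in every library without library 2 and without the 5% highest doublet scores.

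Leukocyte-like cells were higher than VSMC-like cells for 3 genes (Tgfb1, Tgfbr2 and Acvrl1), where 18.4% of genes were, and lower for 4 (Tgfb2, Tgfb3, Tgfbr3 and Eng), where 41.1% were. With log-normalized counts without integration Eng was lower in 5 of 6 libraries (−0.64), which left 3. Against fibroblast-like cells they were higher for Tgfb1 alone, where 16% of genes were, and lower for 5, where 37.7% were. Against endothelial-like cells they were higher for Tgfb1 and Tgfbr1, where 15.3% of genes were, and lower for Tgfbr3, Eng and Acvrl1, where 32.6% were, or 20.2% and 25% with TMM scaling. Without library 5 the count of 1 against fibroblast-like cells became 2, and without library 1 the count of 3 against endothelial-like cells became 5. The median log2 ratio over all genes was −0.34, −0.28 and −0.31 in these 3 comparisons, against 0.015 for fibroblast-like over VSMC-like cells.

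Because the classes differ in size, most UMIs of each gene came from the stroma. VSMC-like cells gave 45.0% of all UMIs, but 60.3% of the UMIs of Tgfb2 and 56.7% of those of Tgfbr1. Fibroblast-like cells gave 51.3% of all UMIs and 76.9% of those of Tgfbr2, 74.1% of Acvrl1, 69.1% of Eng, 67.4% of Tgfbr3, 61.9% of Tgfb3 and 61.8% of Tgfb1. Even for Eng, endothelial-like cells, with 1.85% of all UMIs, gave 11.3%. Cells were sorted as intact, nucleated cells from digested tissue, so these shares apply to the suspension and not to the aortic wall.

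The share of single cells with at least 1 UMI was also taken, after each cell was thinned to 3000 UMIs and shallower cells were left out. Eng was found in 63.4% of 418 endothelial-like cells (95% exact binomial interval 58.6 to 68.0%), in 24.9% of 12374 fibroblast-like cells and in 9.23% of 9677 VSMC-like cells. Leukocyte-like cells, the class with the lowest share, gave 5.12% of 449, at a median depth of 5168 UMIs against 4722 in endothelial-like cells. Tgfb2 was found in 30.2% of VSMC-like and 2.45% of leukocyte-like cells, and Tgfb3 in 17.9% and 1.78%. Tgfbr2 was found in 27.0% of fibroblast-like, 26.3% of leukocyte-like, 26.1% of endothelial-like and 8.75% of VSMC-like cells, so that only the VSMC-like share stood apart. Thinning left out 155 endothelial-like, 100 leukocyte-like, 1233 fibroblast-like and 549 VSMC-like cells, and the unthinned shares were 73.5% for Eng in endothelial-like and 53.9% for Tgfb2 in VSMC-like cells. The intervals cover counting error only.

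VSMC-like cells were then divided into VSMC1-like cells, with Tes and Ptprz1, and VSMC2-like cells, with Enpep and Notch3, transcripts that the study names for these subtypes. Neither the 8 genes nor the genes of the pathway lists took part in this division. The subcluster with the most Enpep and Notch3 against Tes and Ptprz1 was called VSMC2-like. The directions of these markers are therefore no separate support for the name. VSMC2-like cells made up 1612 of 10226, or 15.8%. They had higher Enpep (157 against 18.9 CPM) and Notch3 (95.5 against 12.1 CPM) and lower Tes (15.1 against 120 CPM) and Ptprz1 (56.8 against 206 CPM), each in 6 of 6 libraries, while Myh11, the smooth muscle myosin, was at 2325 against 2498 CPM. All 7 fibroblast markers and 19 of 22 genes induced by tissue dissociation were also higher in VSMC2-like cells in every library, with median log2 ratios of 1.92 and 0.80. The fibroblast markers summed to 1096 to 5279 CPM there, against 741 to 1318 CPM in VSMC1-like cells, and 12.8% against 2.39% of the cells were among the top 5% of doublet scores. Of 5 pericyte markers, 1 was higher in VSMC2-like cells in every library, Higd1b, at 16.3 against 0.0733 CPM. Another 2 were lower in every library, among them Rgs5, at 278 against 444 CPM. Of the VSMC2-like cells, 1498 held no UMI of the pericyte markers Higd1b or Vtn.

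Tgfb3 was the gene of the 8 that separated the subtypes most. It stood at 67.0, 43.1, 54.0, 46.4, 68.1 and 78.9 CPM in the VSMC1-like cells of libraries 1 to 6, and at 174, 109, 151, 119, 172 and 169 CPM in the VSMC2-like cells of the same libraries. The 2 sets of values did not overlap. The log2 ratio was 1.34 at the median and lay between 1.10 and 1.48, a 2.54-fold difference, where 12.2% of 7689 genes were higher in every library. It was 1.67 in the cells that held no UMI of the fibroblast markers Lum, Dpt, Pdgfra, Pi16 or Clec3b, 1.46 without the cells of high doublet score and 1.33 in the cells under the median share of dissociation-induced transcripts. After thinning, 29.9% of the cells called VSMC2-like and 15.6% of those called VSMC1-like had a Tgfb3 UMI, with median depths of 7171 and 7222 UMIs, after 61 and 488 shallower cells were left out. The level in VSMC2-like cells exceeded that of all fibroblast-like cells together in 6 of 6 libraries, by a log2 ratio of 0.36 (range 0.06 to 1.16). Within that class, the cluster led by F3, Hhip and Dio2 stood at 190, 132, 151, 178, 104 and 135.5 CPM in libraries 1 to 6. That cluster was above the VSMC2-like cells in libraries 1, 2 and 4 and below them in libraries 5 and 6.

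Tgfbr1 was lower in VSMC2-like cells. It stood at 90.4, 68.7, 77.3, 76.4, 69.0 and 74.9 CPM in VSMC1-like cells and at 72.6, 50.8, 45.4, 43.0, 51.6 and 39.1 CPM in VSMC2-like cells of libraries 1 to 6. Every library had less in VSMC2-like cells, and only the VSMC2-like value of library 1 reached into the VSMC1-like range. The log2 ratio was −0.60, with a range of −0.94 to −0.32, where 23.1% of genes were lower in every library. It remained below 0 in each library under every alternative, with medians from −0.84 to −0.44. VSMC2-like cells did not differ from fibroblast-like cells in 1 direction, being higher in 3 of 6 libraries with a log2 ratio of 0.05 (range −0.16 to 0.49).

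The other 6 genes differed less between the subtypes as divided here. Tgfbr3 was lower in VSMC2-like cells in every library, but by a log2 ratio of only −0.25, with a range of −0.45 to −0.005. Its median was −0.62 in cells without a fibroblast marker UMI and 0.03, with 3 libraries on either side, when all genes were kept in the clustering. Tgfb1 (log2 ratio 0.28) and Eng (0.24) were each higher in 5 of 6 libraries, Tgfb2 (−0.15) was lower in 5 of 6, and Tgfbr2 (0.05) and Acvrl1 (−0.14) were higher in 3 of 6. Eng was higher in every library without library 4, and Tgfb1 without library 6, which made 2 genes higher in place of 1. Of the 8 genes, 1 was thus higher and 2 were lower in every library, shares near the 12.2% and 23.1% of all genes. Removal of cells with a fibroblast marker UMI left 808 VSMC2-like and 5263 VSMC1-like cells. It gave 1 higher and 4 lower genes, where 10.2% and 22.4% of all genes were. Tgfbr2 (−0.36) and Acvrl1 (−0.90) then joined Tgfbr1 and Tgfbr3. In the VSMC-like cluster led by Pgam2 and Pln, Acvrl1 (−1.08) and Tgfbr3 (−0.57) were lower than in the other VSMC-like clusters in 6 of 6 libraries. Tgfbr2 (−0.49) was lower there in 5 of 6 and Tgfb1 (0.30) higher in 6 of 6, while Tgfb2 and Eng had no common direction.

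**Figure D2:**
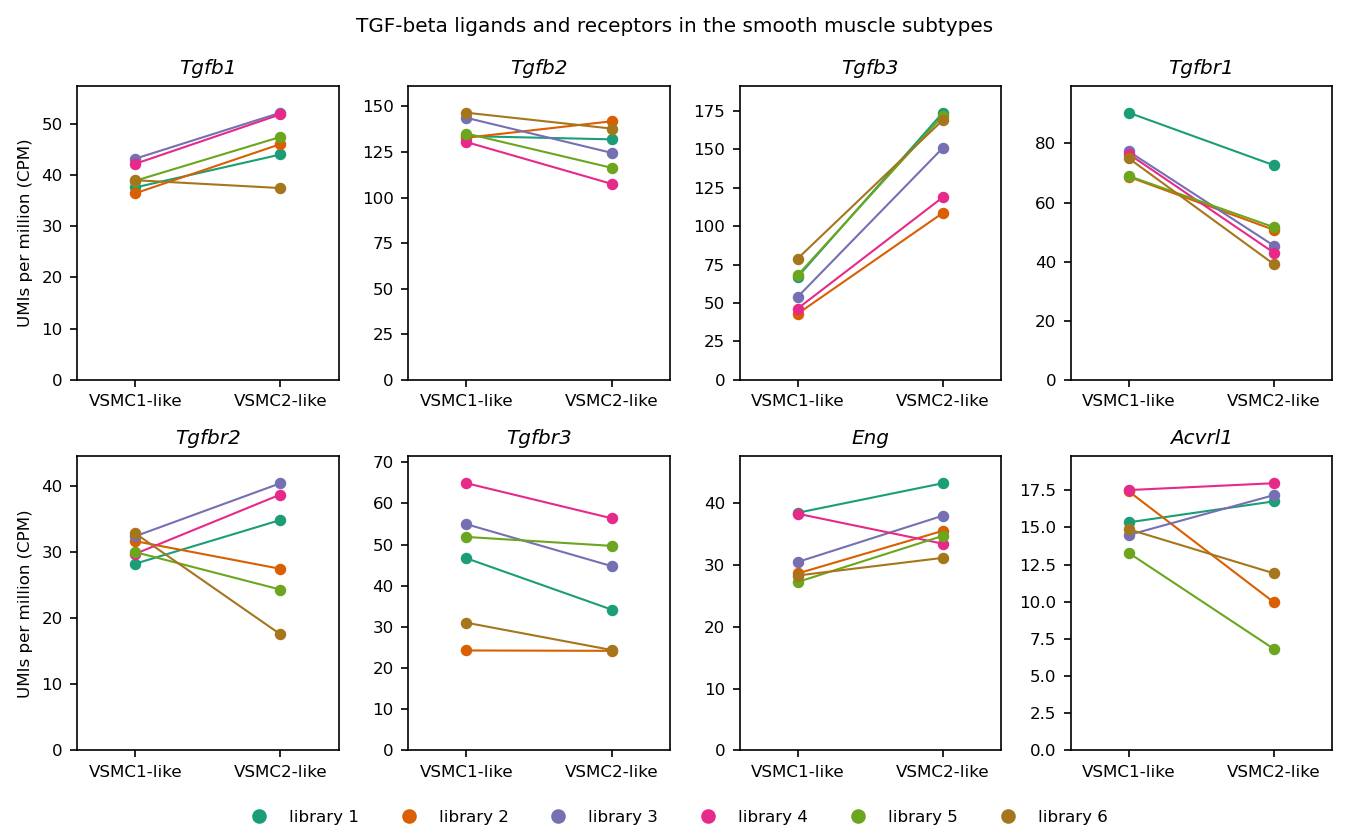
CPM of the 8 genes (y axis, linear from 0, 1 scale per gene) in VSMC1-like and VSMC2-like cells (x axis). Each line joins the 2 values of 1 library. All 6 lines go up for Tgfb3, from 43.1 to 78.9 CPM in VSMC1-like to 109 to 174 CPM in VSMC2-like cells, and all 6 go down for Tgfbr1.

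A finer division of the VSMC-like cells showed where Tgfb3 and Tgfbr1 varied. Of its 6 subclusters, the one with 1703 cells, led by Pgam2, Thbs1 and Cygb, was 92.2% VSMC2-like. It had a median of 154 CPM of Tgfb3, while the other 5 had medians of 46.2 to 60.5 CPM. Tgfbr1 was highest, with a median of 113 CPM and a range of 101 to 127, in a subcluster of 827 cells led by Gm26699, Snhg20, Gm26724 and Carmn, and it exceeded the rest of the VSMC-like cells there in 6 of 6 libraries by a log2 ratio of 0.73 (range 0.54 to 0.89). The cells of that subcluster had a median of 4447 UMIs, against 6446 to 8318 in the other 5. Its further leading genes included the mitochondrial transcript mt-Atp8. The part of depth or of RNA quality in its Tgfbr1 level was not tested. A subcluster of 616 cells with high Rgs5 had less Tgfb2 (median 97.0 CPM, log2 ratio −0.47) and more Tgfbr1 (93.7 CPM, 0.46) and Acvrl1 (19.7 CPM, 0.42) than the other VSMC-like cells, each in 6 of 6 libraries.

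Fibroblast-like cells fell into 6 clusters, between which 3 of the 8 genes (Tgfb1, Tgfb2 and Acvrl1) varied over 2-fold at the median. Without library 5 the count was 5, and at a clustering resolution of 0.15 it was 2, without Tgfb2. The share of all genes that varied so was not computed, so these counts cannot be set against the whole transcriptome. A cluster of 1597 cells led by Coch, Spp1, Wif1 and Chad, the last a protein of cartilage matrix, stood apart. Its Tgfb1 ranged from 110.2 to 259 CPM with a median of 147, higher than the other fibroblast-like cells in 6 of 6 libraries by a log2 ratio of 1.08. Its Acvrl1 ranged from 8.70 to 15.8 CPM with a median of 14.3, the lowest of the 6 clusters in every library, with a log2 ratio of −1.97 (range −3.13 to −1.75), where VSMC-like cells had 15.2 CPM. Tgfb2, at a median of 114 CPM, was also higher than in the other fibroblast-like cells in 6 of 6 libraries (0.63), and Tgfbr3, at 69.5 CPM, was lower in 6 of 6 (−0.61).

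The remaining fibroblast-like clusters differed in Tgfb3 and in the co-receptors. The largest, 5151 cells led by the hyaluronan synthase Has1 and the chemokine Ccl11, had the most Tgfbr3, with a median of 126 CPM, and was the highest of the 6 clusters in every library. It had less Tgfb3 than the other fibroblast-like cells in 6 of 6 libraries (74.4 CPM, log2 ratio −0.75). A cluster of 4480 cells led by F3, Hhip and Dio2 had more Tgfb3, with a median of 143 CPM and a log2 ratio of 0.67, and less Tgfbr1, with a median of 35.8 CPM and a log2 ratio of −0.40, each in 6 of 6 libraries. A cluster of 1004 cells led by Cytl1, Cst6 and Pthlh had more Tgfb1, with a median of 122 CPM and a log2 ratio of 0.69 in 6 of 6. Tgfbr2 varied least, with medians from 102 to 131 CPM over the 6 clusters.

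**Figure D3:**
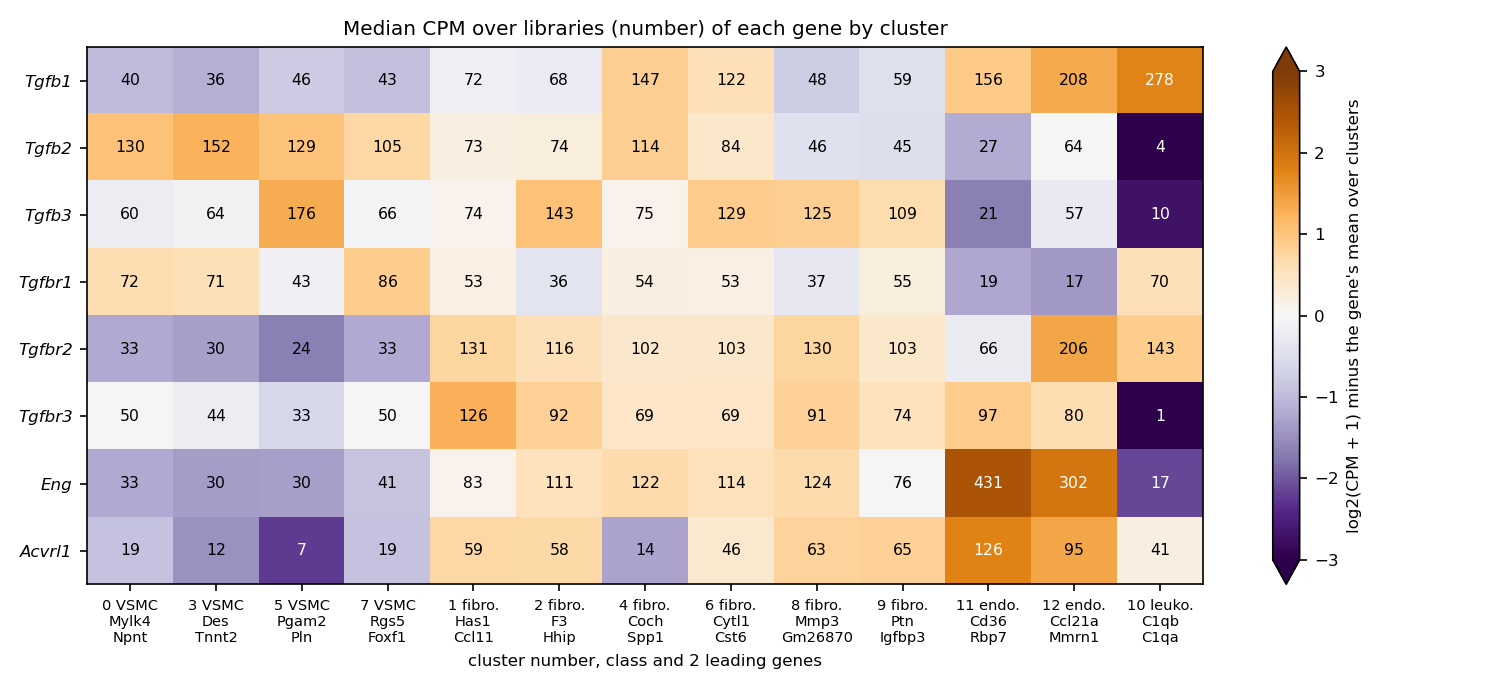
Median CPM over libraries, written in each cell, of the 8 genes (rows) in 13 clusters (columns, with number, class and the first 2 leading genes). Colour is log2(CPM + 1) minus the mean of the gene over the 13 clusters, orange above and purple below it. Acvrl1 is low in the fibroblast-like cluster led by Coch (14.3 CPM) and in the VSMC-like cluster led by Pgam2 (6.83 CPM), in which Tgfb3 is at 176 CPM.

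Endothelial-like cells were of 2 clusters, the first read in 5 libraries and the second, with the lymphatic markers, in 3. Eng had medians of 431 and 302 CPM and Acvrl1 of 126 and 94.8 CPM, and neither differed in 1 direction where both clusters were read. The cluster with lymphatic markers had more Tgfbr2 (206 against 66.0 CPM) and Tgfb2 (64.0 against 26.9 CPM) in 3 of 3 libraries, by log2 ratios of 0.97 and 1.46, and less Tgfbr3 in 3 of 3 (−0.38, range −1.95 to −0.005).

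The pathway around the ligands and receptors was read from 6 lists with 82 genes in the matrix, of which 56 held at least 10 CPM in VSMC-like cells. VSMC2-like cells had 12 of them higher and 18 lower than VSMC1-like cells in every library, where 12.2% and 23.1% of all genes were, with a median log2 ratio of −0.05, beside −0.07 over all genes. Genes of the latent complex and its activation were mostly lower, 10 of 17, with 2 higher. The lower ones included Ltbp1 (−0.71) and Ltbp3 (−0.72), which tether latent TGF-β to the matrix, Ltbp2 (−1.70), a protein of the same family that binds fibrillin but not latent TGF-β, fibrillin-1 (Fbn1, −0.32) and the integrin subunit Itgb3 (−1.01). The higher ones were Thbs1, an activator of latent TGF-β, at 345 against 22.1 CPM (log2 ratio 4.17, range 3.59 to 4.22), and Dcn (2.46, range 1.86 to 3.33), which is itself a fibroblast transcript.

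Of 15 target genes of the pathway, 7 were higher, 1 was lower and 7 had no common direction, beside the same 12.2% and 23.1% of all genes. The higher ones included Bhlhe40 (1.85), Junb (1.26), Cdkn1a (1.17), Id3 (1.06), Id1 (1.06) and Id2 (0.90). Junb is also 1 of the 22 dissociation-induced genes, and the Id genes are best known as targets of BMP signalling. Elastin (Eln) was the lower one, at 413 against 1453 CPM (−1.85, range −2.22 to −1.59), and Acta2 (0.001), Ctgf (−0.13), Col1a1 (−0.31) and Col1a2 (−0.52) had no common direction. Of the Smads, the inhibitory Smad7 was higher (0.54) and Smad1 lower (−0.33), and Smad2, Smad4, Smad5 and Smad6 had no common direction. Among receptor-associated regulators 1 of 9 was higher, the ubiquitin ligase Smurf1 (0.83), and 4 were lower, Fkbp1a (−0.18), Smurf2 (−0.28), Wwp1 (−0.30) and Pmepa1 (−0.63). Of 9 other receptors and co-receptors Nrp1 was higher (0.59) and Bmpr1a (−0.20) and Bmpr1b (−2.37) were lower, while Cd109 (0.40) was above 0 in 4 of 6 libraries. With no minimum CPM more list genes were counted, and 19 were higher in place of 12, where 8.14% of 19119 genes were. The minimum of 10 CPM was taken over both subtypes together, and 84.2% of these cells were VSMC1-like. A gene found mainly in VSMC2-like cells therefore passed it less easily.

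**Figure D4:**
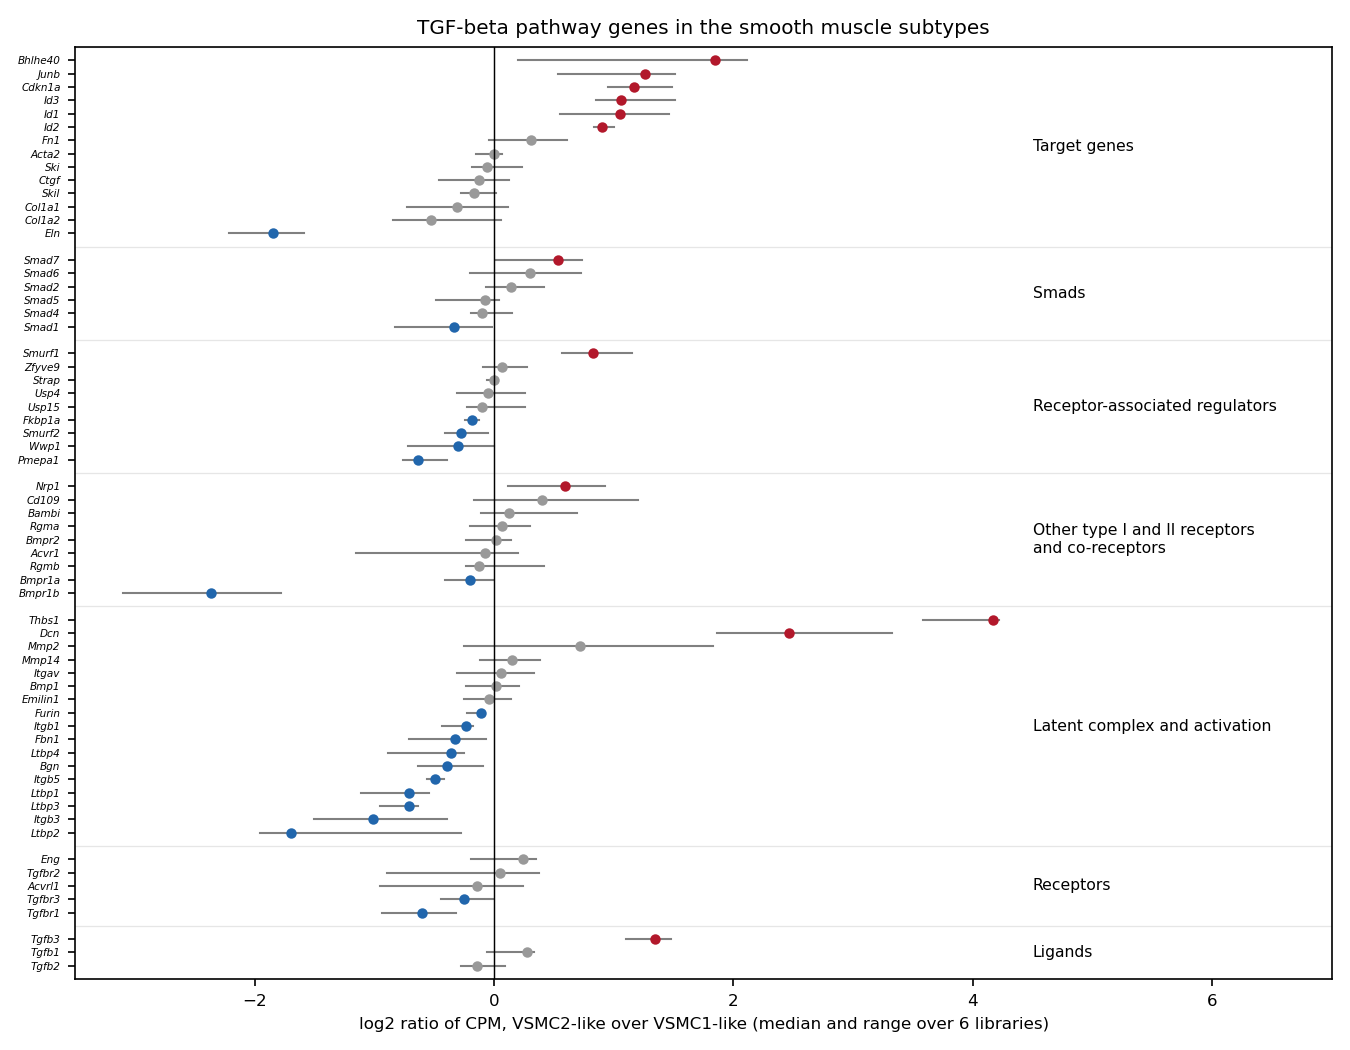
Log2 ratio of CPM in VSMC2-like over VSMC1-like cells (x axis) for the 8 genes and the pathway genes with at least 10 CPM that are reported here (y axis, grouped by list). Points are medians and lines the range over 6 libraries, red where all 6 are above 0, blue where all 6 are below 0 and grey otherwise. Tgfb3 at 1.34 and Tgfbr1 at −0.60 point in opposite directions, and 10 of 17 latent complex and activation genes are blue.

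Between fibroblast-like and VSMC-like cells, 37 of 64 list genes were higher and 14 lower in fibroblast-like cells in every library. Of all genes, 36.9% were higher and 34.7% lower. The median log2 ratio was 0.35, beside 0.015 over all genes. The minimum of 10 CPM was taken over both classes together. Fmod, Tgfbi, Smad3, Dab2, Hey1, Lrrc32, Tgif1 and Itgb8 passed it through fibroblast-like cells alone. They had 3.0 to 9.3 CPM in VSMC-like cells and were counted as higher. Itgb3 and Bmpr1b, counted as lower, had 4.0 and 5.1 CPM in fibroblast-like cells. The direction of these genes was tied to the minimum. The latent complex list had 13 of 20 higher, led by Fmod (6.25) and Dcn (5.59), and 4 lower, Furin (−0.38), Ltbp1 (−1.27), Itgb1 (−2.0) and Itgb3 (−2.89). Target genes had 10 of 18 higher, led by Tgfbi (6.35) and Bhlhe40 (3.26), and 4 lower, with Acta2 (−5.18) the lowest. Smads had 4 of 7 higher, among them Smad3 (24.2 against 6.01 CPM, log2 ratio 2.03) and Smad5 (0.85), and none lower. Other receptors had 6 of 9 higher, led by Nrp1 (3.26) and Rgmb (1.12), and 2 lower, Bmpr1a (−0.77) and Bmpr1b (−1.97), and regulators had 4 of 10 higher, led by Dab2 (2.23) and Zfyve9 (0.66), and 4 lower, with Pmepa1 (−0.33) and Usp15 (−0.44) the lowest. With a minimum of 50 CPM fewer list genes were counted, and 24 were higher in place of 37. The share of all genes at that minimum was not computed for these classes.

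Over 77 sums of at least 20 cells of a cluster in a library, some of the 8 genes had like patterns. Pearson's r of log2(CPM + 1) was 0.76 between Tgfb2 and Tgfb3, 0.71 between Eng and Acvrl1, 0.66 between Tgfb3 and Tgfbr3, 0.64 between Tgfbr3 and Eng and 0.63 between Tgfbr2 and Acvrl1. Tgfb1 came no closer than 0.51, to Tgfbr2, and Tgfbr1 no closer than 0.20, to Tgfb2. The lowest values were −0.58 between Tgfb1 and Tgfb2 and −0.56 between Tgfb1 and Tgfb3. Tgfb2 and Tgfb3, though close by r, had median log2 ratios of −0.83 and 0.70 for fibroblast-like over VSMC-like cells. Both were low in the leukocyte-like cluster led by C1qb (medians 4.05 and 9.64 CPM), and the part of such low sums in r was not tested. The sums share libraries and clusters and differ in depth, so these values are descriptions. Among 10479 genes, those nearest in this measure included Atp2b1 and Fxyd5 for Tgfb1 (r 0.86 for both). The 3 nearest were Tbx18, Ptgis and Creb3l2 for Tgfb2 (0.89 to 0.90), and Sdc2, Twsg1 and Ctgf for Tgfb3 (0.89 to 0.91). They were Parp8, Sorl1 and Fgd4 for Tgfbr1 (0.66 to 0.70), the weakest likeness, Cmtm3, Lmo2 and Emp1 for Tgfbr2 (0.88 to 0.91), and Mpdz, Nbea and Ppic for Tgfbr3 (0.89 to 0.90). Sptan1, Tcf4 and Sptbn1 were nearest to Eng (0.90 to 0.92) and Pltp, Tmcc3 and Ifitm2 to Acvrl1 (0.85 to 0.89). With Spearman's correlation 6 of the 24 nearest genes were again among the nearest, and with sums of at least 50 cells 5 were, so that the names depend on the measure.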

How the data were processed

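Single-cell suspensions were sorted as DCV+ PI- cells after digestion for 30 min or 1 hour and sequenced by the authors with 10x Genomics 3' v3 chemistry. The deposited matrix holds UMI counts, whole numbers without normalization, which the authors made by alignment to mm10 and aggregation in Cell Ranger, version 6 in the submitters' processing notes and 4.0.0 in the matrix header. Whether the aggregation equalized depth is not stated. It holds 31053 mouse genes and 2 added sequences. Samples were prepared on several days, which no source matches to libraries.

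The filter of the study's methods was applied, which asks for a gene number between 1000 and 5000, a UMI number between 1500 and 25000 and a mitochondrial share below 20%. Normalization of each library by SCTransform v2 (sctransform 0.4.2), RPCAIntegration with 30 principal components and clustering at a resolution of 0.25 were run in Seurat 5.3.0 under R 4.3.3. The 8 genes and the pathway lists were left out of the 3000 variable genes, which removed 54. A cluster took the class with the highest mean log2 ratio of its markers to the median cluster, if at least 3 markers were found in 10% of its cells and above 1.5 times the median cluster. VSMC-like cells were integrated again without the lists, Tes, Ptprz1, Enpep and Notch3, and a resolution of 0.05 gave 2 subclusters of at least 5% of the cells. Doublets were scored with scrublet in scanpy 1.11.5 and kept. It called 0.0891 to 1.92% of the cells of a library, under 0.5% in 2 libraries, so its call did not work in all of them and the 5% highest scores served as the filter.

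CPM were computed from the UMIs summed over the cells of a class in a library, and classes were compared within a library by the log2 ratio, after 0.5 UMI, in proportion to depth, was added. Medians of CPM and of ratios were taken separately, and levels of markers and list genes set against each other are CPM over all libraries together. Genes with at least 10 CPM in the cells compared, both kinds summed together, formed the background. A gene could thus pass only through the kind where it was higher. The ratio was tested on simulated counts. Shares of cells have exact binomial intervals. Coordinates are from GENCODE M21 for mm10, 1-based, and start-site windows from RefSeq.

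Named genes are the 8 genes, the 3 genes nearest to each by Pearson correlation, the 2 highest and 2 lowest genes of each pathway list in each ratio, and markers. Other list genes, and genes leading a cluster (the 10 with the largest fold over all other clusters), were named after their values were seen. A few genes that these rules name are not reported here. The 8 genes, the lists and the alternatives were chosen with earlier results of these data known. Alternatives were another clustering, doublet and mitochondrial filters, TMM scaling (edgeR 4.0.16), priors, minimum CPM, resolutions and each library left out. No test between groups was run, because the libraries come from mice of both genotypes in unknown order. Dixon's criterion served only to flag single libraries.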

Additional observations from a re-analysis of the deposited data

Results flagged for a closer look

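In 4 of 48 sets of library values 1 library stood apart from the others by Dixon's criterion, which chance passes in about 1 of 20 sets, and each time it was library 1. Tgfbr1 was at 88.7 CPM in its VSMC-like cells, against 65.3 to 72.9 CPM in the other 5 libraries, and at 72.6 CPM in its VSMC2-like cells, against 39.1 to 51.6 CPM. In its leukocyte-like cells Tgfb2 was at 71.0 CPM, against 2.96 to 24.3 CPM, and Tgfb3 at 29.9 CPM, against 2.96 to 11.4 CPM. The leukocyte values rest on 19 and 8 UMIs in 47 cells. VSMC2-like cells are part of the VSMC-like cells, so the sets overlap and the Tgfbr1 flags are not separate.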

How the results depend on the processing

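Of the alternative values of counts of genes, 264 stayed within 1.5 times the reported count and 22 did not. Of those of single genes, 834 stayed within a limit and 45 moved beyond it. The limit was the spread between libraries. For fibroblast-like clusters it was the spread of the values with 1 library left out, or a small fixed value if larger. Many alternatives leave out 1 library and share most values with the reported median, so they could move little. The direction of 1 called value turned: Tgfbr3 in VSMC2-like over VSMC1-like cells was 0.03 when all genes were kept in the clustering. Genes of the 8 higher in VSMC2-like cells in every library numbered 2 in place of 1 with log-normalized counts without integration, with all genes kept, without the 5% highest doublet scores, with TMM scaling, at the next resolution step and in cells under the median share of dissociation-induced transcripts. The genes lower in every library numbered 1 in place of 2 with all genes kept, with TMM scaling, at the next resolution step and in cells under that share, and 4 without the 5% highest doublet scores and in cells without a fibroblast marker UMI. Tgfb3 and Tgfbr1 kept their direction in every library under all of these. Leukocyte-like cells were lower than endothelial-like cells for 5 genes in place of 3 without the 5% highest doublet scores. Pathway genes higher in fibroblast-like cells numbered 24 in place of 37 with at least 50 CPM, and those higher in VSMC2-like cells 19 in place of 12 with no minimum. Both settings also changed which genes were counted. Of the 24 genes with like patterns, 6 were shared under Spearman's correlation and 5 with sums of at least 50 cells. The causes were not tested.

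With 1 library left out, the genes higher in VSMC2-like cells numbered 1 to 2 and those lower 2 to 3, leukocyte-like over fibroblast-like cells had 1 to 2 genes higher, leukocyte-like over endothelial-like cells 3 to 5 lower, and 3 to 5 genes varied over 2-fold between fibroblast-like clusters. TMM scaling moved the median log2 ratio of all genes from 0.04 to −0.35 for endothelial-like over VSMC-like cells and from 0.09 to −0.19 for endothelial-like over fibroblast-like cells. With all genes kept, the resolution that first gave 2 subclusters split off cells with high Rgs5, so the next one was used, a choice made after seeing the data, as were the settings without fibroblast marker UMIs and without Higd1b or Vtn UMIs. No paired analysis was possible because the replicate numbers of the mice cannot be tied to libraries; the classes and subtypes were compared within each library. Endothelial-like and leukocyte-like values rest on 573 and 549 cells, and on as few as 0 UMIs of a gene in a library.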
